A study of Xenopus tropicalis with 24 samples.

Results

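The regions described here are the H3K4me3 peaks of Xenopus tropicalis embryos at stage 9 and stage 10.5, that is, at the late blastula and at the start of gastrulation. They were taken as the 2 deposited H3K4me3 peak lists of these stages, which hold 6839 and 14549 peaks, or 21388 of the 169312 peaks in all lists of the study. A peak was called kept when a peak of the other stage overlapped it by at least 1 bp, gained when a stage 10.5 peak overlapped none of stage 9, and lost when a stage 9 peak overlapped none of stage 10.5. A peak was called a promoter peak when the deposited annotation put its centre no more than 1 kb from the start of a transcript (TSS), and it was given the gene of that TSS.

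The study profiled histone marks and the Nodal effectors Smad2/3 by chromatin immunoprecipitation and sequencing, and polyadenylated RNA by sequencing of 3′ ends, in embryos of stages 8, 9 and 10.5. Every library used here came from wild type whole embryos made by in vitro fertilization, with no treatment named. Chromatin came from pools of 250 embryos, and the H3K4me3 libraries of all stages carry the same multiplex pool label. The title of the stage 9 H3K4me1 library alone marks it as repeated in a named pool. There was 1 library for each mark and stage and 1 RNA library for each stage, so no difference below has a replicate check and no p-value is given. Intervals are exact binomial (Clopper-Pearson) 95% intervals, or their equivalent for medians, and cover counting error only.

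Trimethylation of lysine 4 of histone H3 marks the start of genes that RNA polymerase II transcribes or is ready to transcribe. It is laid down by SET1 and MLL complexes, which are drawn to unmethylated CpG-rich DNA and to elongating polymerase, and it is removed by KDM5 demethylases. Genes that specify cell identity often carry wide domains of it. In Xenopus the zygotic genome is switched on at the mid-blastula transition, and gastrulation begins as Nodal, Wnt and BMP signals set up endoderm, mesoderm, the organizer and ectoderm.

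Read depth of the chromatin libraries is not given in the files, and both the number and the width of called peaks move with depth. Its part in the results was not tested. The RNA libraries held 4973283, 6659554 and 8030203 tags in regions with a gene name at stages 8, 9 and 10.5. Tags are given as CPM, the count scaled to a fixed total of named tags per library. In whole embryos, fewer cells of a type and less RNA per cell cannot be told apart, and maternal and zygotic transcripts of a gene are counted together.

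H3K4me3 peaks of stage 9 were nearly all still present at stage 10.5, and more than as many again had been added. Of the 6839 stage 9 peaks, 6407 were kept, or 93.7% (interval 93.1 to 94.2%), and 432 were lost, or 6.32%. Of the 14549 stage 10.5 peaks, 8214 were gained, or 56.5% (55.6 to 57.3%), and 6335 overlapped a stage 9 peak. With the stage 10.5 list cut to the length of the stage 9 list by score, 1524 peaks were gained (22.3%) and 1456 lost (21.3%). The length under peaks went from 8.08 Mb to 29.3 Mb. Few calls lay near the limit of the overlap rule. The smallest overlap of a kept peak was 190 bp and the smallest gap of a gained peak 297 bp, and 9 gained peaks had a stage 9 peak within 1 kb.

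Loss at promoters was close to absent when the full lists were compared. Of 3279 promoter peaks at stage 9, 2 had no overlap at stage 10.5. One lay at rn18s, the 18S ribosomal RNA, on scaffold 3494 from 5282 to 5660 of the xenTro2 build. The other lay 972 bp upstream of the TSS of kdm2a, a demethylase of histone H3 lysine 36, on scaffold 379 from 784423 to 784777, while the TSS itself was covered at both stages. With the stage 10.5 list cut to the stage 9 length by score, 244 TSSs placed below lay under a stage 9 peak alone. With the full lists it was 1. Of 2970 stage 9 peaks farther than 1 kb from a TSS, 219 were lost in the full lists. On scaffolds with no annotated TSS, 211 of 590 were lost, or 35.8%, so 48.8% of all lost peaks lay on such scaffolds against 5.92% of kept ones.

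Gained peaks were more often far from an annotated TSS than kept ones. The peak lists name 8493 promoters in all, and a TSS missing from the annotation would not be seen. On scaffolds with no annotated TSS lay 1070 gained and 377 kept peaks, which have no distance. At stage 10.5 there were 4779 promoter peaks, 2884 of them kept and 1895 gained, and 8323 peaks farther from a TSS, 3074 kept and 5249 gained. By the deposited annotation, 52.5% of gained peaks were intergenic and 18.5% intronic, against 37.9% and 28.6% of kept peaks. The median distance from the peak centre to the nearest TSS was 18430 bp for gained peaks and 1121 bp for kept ones. It was 1264 bp for gained peaks when only the upper 50% of each list by score was compared. The promoter limit itself was arbitrary for wide peaks. The promoter peaks of aen, ventx1.1 and ndfip1 lay just inside it at 999, 1000 and 1000 bp, and those of tfap4, pom121 and ranbp9 just outside at 1001, 1001 and 1007 bp.

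Lost peaks were short, weak and poor in CpG. Their median width was 578.5 bp, against 961 bp for kept peaks at stage 9, and their median deposited score was 10 against 21. Their GC content had a median of 43.1% and their CpG content 1.35%, against 49.3% and 3.61% in kept peaks. The detailed annotation named a repeat for 19.4% of lost and 1.79% of kept peaks, and a CpG island for 2.55% and 11.5%. The lost peaks with the highest scores were assigned to fam203a at 3.45 kb, sox18 at 248 kb, qtrt1 at 5.61 kb, rps3a at 89.4 kb and tspo at 53.9 kb from the TSS. Of these, the fam203a peak scored 125 and the other 4 between 34 and 57.

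Gained peaks were intermediate in CpG content, with a median of 1.98% against 2.39% in kept peaks at stage 10.5, and their GC content of 44.9% was close to the 45.1% of kept peaks at that stage. Over kept loci, both measures were lower at stage 10.5 than at stage 9, where the peaks were narrower. Gained peaks had a median width of 1177 bp and a median score of 85, against 2139 bp and 391 for kept peaks at stage 10.5. Gained promoter peaks scored higher than gained distal ones, with medians of 178 and 64.

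**Figure D1:**
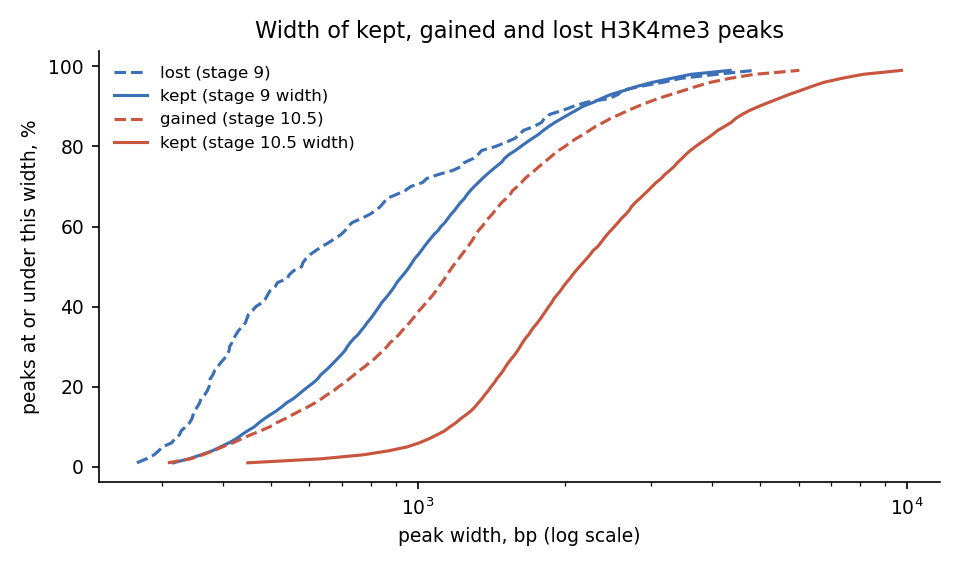
Cumulative share of H3K4me3 peaks (y axis, %) at or under a given width (x axis, bp, log scale), from the 1st to the 99th percentile, for lost and kept peaks at stage 9 and gained and kept peaks at stage 10.5. The curve of kept peaks shifts from a median of 961 bp at stage 9 to 2139 bp at stage 10.5, and that of gained peaks lies between them at 1177 bp.

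Kept peaks widened almost without exception. Of 6262 stage 9 peaks paired with a single stage 10.5 peak, 6020 were wider at stage 10.5 (96.1%), 3686 at least 2-fold (58.9%), and 239 were narrower. The median ratio of widths was 2.21, with quartiles of 1.63 and 3.04. The stage 9 peak lay wholly inside the later one in 90.6% of pairs. Another 69 stage 10.5 peaks joined 143 stage 9 peaks, up to 4 under a single peak, and had a median width of 6456 bp. Of the 21.8 Mb under stage 10.5 peaks but not under stage 9 peaks, 55.8% lay in gained peaks and 44.2% beside kept ones.

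Widening moved the centres of peaks, which changes what a distance measured from the centre says about a gene. The centre shifted by a median of 203 bp, and by over 500 bp in 1478 pairs (23.6%). When genes were classed by the names of promoter peaks, 2757 were kept, 1982 gained and 509 lost. The 509 lost genes had 512 stage 9 promoter peaks, and a stage 10.5 peak overlapped 510 of them. Of the 498 whose TSS could be placed, 488 still had it under a peak, and the median peak over the TSS went from 1583 bp to 4571 bp. At these 488 the mark had not been lost from the TSS. The gained class holds such cases too: 119 of its 1982 genes had a stage 10.5 promoter peak that overlapped a stage 9 peak, and the TSS of 91 was covered at stage 9. The lost class includes those with the highest stage 9 scores in the class, bcor, cldn7, spry1, fzd7 and bambi, whose peaks went from 10218 to 12507 bp, from 1932 to 3150 bp, from 3406 to 10642 bp, from 5071 to 7781 bp and from 3127 to 9531 bp. Bcor encodes a corepressor of BCL6, cldn7 a tight junction protein, spry1 a feedback inhibitor of FGF signalling, fzd7 a Wnt receptor and bambi a pseudoreceptor that dampens BMP signalling.

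For this reason the genes were also classed by whether a peak covered the TSS, a choice made after the values were seen. The position and strand of 8092 TSSs of 7807 genes were worked out from the peak centres and signed distances in the deposited lists. A TSS enters this set only when several peaks of the study had it as their nearest, so the shares below hold for such TSSs and not for all genes. Stage 9 peaks covered 3292 of them (40.7%), and stage 10.5 peaks 5570 (68.8%). Both stages covered 3291, stage 10.5 alone 2279 (28.2%, interval 27.2 to 29.2%), stage 9 alone 1, and neither 2521. The single TSS covered at stage 9 alone was that of wrap53, a protein of Cajal bodies and telomerase assembly, whose stage 9 peak was 1684 bp wide. Its RNA was at 104, 74.2 and 156 CPM at stages 8, 9 and 10.5.

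Most newly covered TSSs lay under a peak that had not been there before. Of the 2279, 1971 (86.5%) lay under a gained peak, and 308 (13.5%) were reached by a stage 9 peak that had lain beside the TSS and now extended over it. The newly covered TSSs had narrower peaks than those covered throughout, with medians of 1528 and 2381 bp at stage 10.5, and lower scores, with medians of 217 and 417.

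The spread around TSSs was uneven. Over TSSs covered at both stages, the peak reached 439 bp upstream and 564 bp downstream at stage 9 (medians), and 885 bp upstream and 1341 bp downstream at stage 10.5. It grew by a median of 446 bp upstream (interval 436 to 457 bp) and 684 bp downstream (648 to 723 bp), and grew more downstream than upstream at 2092 of 3291 TSSs, or 63.6%. At 2 kb downstream of the TSS, peaks covered 3.08% of positions at stage 9 and 18.3% at stage 10.5. At 2 kb upstream they covered 1.48% and 7.85%. Strand came from the annotation alone, and neighbouring genes in the opposite orientation were not removed.

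**Figure D2:**
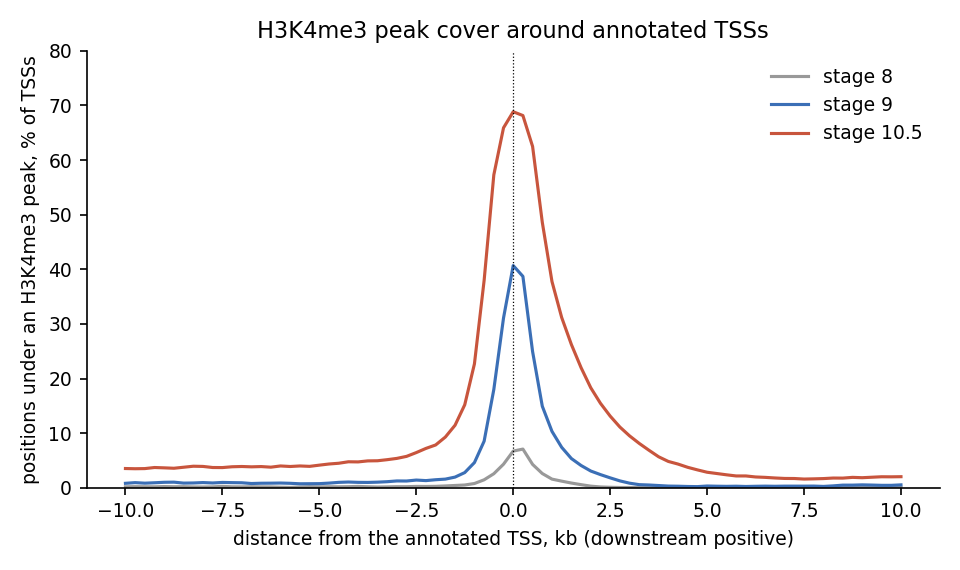
Share of 8092 annotated TSSs (y axis, %) with an H3K4me3 peak over the position at a given distance from the TSS (x axis, kb, downstream positive), at stages 8, 9 and 10.5. Cover at the TSS itself is 6.72%, 40.7% and 68.8%, and the stage 10.5 curve falls off more slowly downstream than upstream within the first few kilobases.

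Other marks had preceded H3K4me3 at many gained peaks. H3K4me1, the monomethylated form found at enhancers and beside promoters, overlapped 76.8% of gained peaks already at stage 9, and H3K27ac, an acetylation of active enhancers and promoters, overlapped 25.8%. Over all 14549 stage 10.5 peaks these shares were 85.8% and 41.4%, and over kept peaks 97.4% and 61.7%. At stage 10.5 H3K27ac overlapped 54.3% of gained and 83.9% of kept peaks, against 67.2% of all. H3K4me1 at stage 10.5 overlapped 85.2% and 97.0%, against 90.3% of all, and at stage 8 it had overlapped 15.7% and 66.2%, against 37.7% of all. Wide peaks overlap others more easily, and kept peaks are wider than gained ones. The lists also differ in length, which bears on any comparison between marks or stages. At stage 9 they hold 25975 H3K4me1 and 11314 H3K27ac peaks, and at stage 10.5 35700 and 23275. An earlier H3K4me3 peak, at stage 8, lay under 1.14% of gained and 19.4% of kept peaks, against 9.07% of all.

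At a single base, the TSS, overlap with another mark does not grow with the width of the H3K4me3 peak itself. It does depend on the width of the other mark's peak. The classes of TSSs also depend on H3K4me3 width, since 308 of the 2279 newly covered TSSs were reached by a stage 9 peak that spread. Among newly covered TSSs, 89.1% lay under an H3K4me1 peak at stage 9, against 99.1% of those covered at both stages and 7.66% of those covered at neither. H3K27ac at stage 9 covered 28.2% of the newly covered TSSs, 62.6% of those covered at both stages and 3.65% of those covered at neither. At stage 10.5 the shares for H3K27ac were 61.4%, 84.9% and 13.4%. For H3K4me1 at stage 10.5 they were 91.5%, 91.4% and 19.3%, so newly covered TSSs and those covered at both stages had nearly the same share. The commonest state of a gained promoter peak at stage 9 was thus H3K4me1 without H3K27ac, in 67.6% of 1895 peaks. It was found in 40.5% of 2884 kept promoter peaks, of which 58.8% had both marks. An H3K27ac peak at stage 10.5 but not at stage 9 lay at 41.9% of gained and 31.0% of kept promoter peaks. Of gained distal peaks, 51.3% had H3K4me1 without H3K27ac at stage 9 and 20.6% had neither, against 33.6% and 1.24% of kept distal peaks.

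Few lost peaks had H3K4me1 or H3K27ac at stage 10.5. H3K4me1 overlapped 50.7% of them at stage 9 and 14.8% at stage 10.5, and H3K27ac 27.3% and 17.6%. Over all stage 9 peaks, the shares were 94.4%, 91.4%, 59.4% and 79.5% in the same order. Peaks of H3K27me3, the mark of Polycomb repression, at stage 9 overlapped 8.56% of lost peaks, and Smad2/3 peaks at stage 9 overlapped 6.71%, against 0.965% and 0.746% of all stage 9 peaks. These 2 lists are short, with 81 and 865 peaks. The stage 10.5 list of H3K27me3, with 179 peaks, overlapped 6.94% of lost peaks and 1.55% of all stage 9 peaks. Smad2/3 at stage 10.5 overlapped 1.81% of gained and 1.85% of kept peaks, and 1.83% of all, shares that lie close together. The stage 9 list of Smad2/3 overlapped 0.134% of gained, 0.347% of kept and 0.227% of all stage 10.5 peaks, and the stage 10.5 list overlapped 1.62% of lost and 0.585% of all stage 9 peaks.

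**Figure D3:**
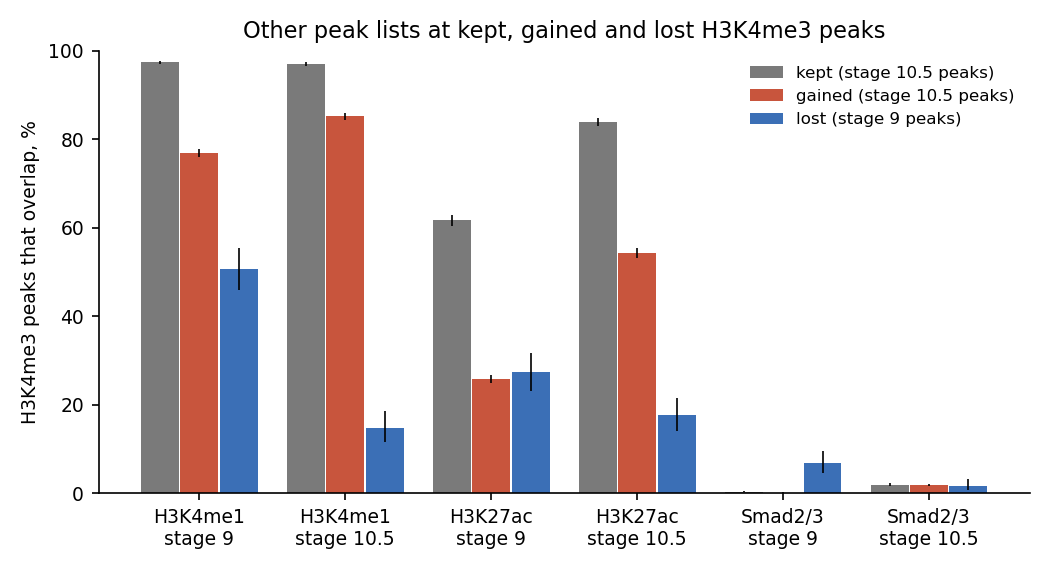
Share of H3K4me3 peaks (y axis, %) that overlap a peak of H3K4me1, H3K27ac or Smad2/3 at stage 9 or 10.5 (x axis), for kept and gained peaks at stage 10.5 and lost peaks at stage 9, with exact binomial 95% intervals. H3K4me1 at stage 9, a list of 25975 peaks, overlaps 76.8% of gained peaks, and H3K27ac at stage 9, a list of 11314, overlaps 25.8%.

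RNA of stage 10.5 was compared with that of stage 9 as log2(CPM + 1), and a gene is called higher or lower where the difference is at least 1. Genes that reached 10 CPM in neither library were left out, which kept 5045. A gene under 10 CPM at stage 9 thus entered only through its stage 10.5 level and could not be lower. The reverse holds for a gene under 10 CPM at stage 10.5. Of the 5045 genes 29.0% were higher at stage 10.5 and 17.2% lower, and the median log2 difference was 0.29. Scaling by TMM moved that median to 0.0065 and the shares to 22.3% and 22.3%, so the balance of higher and lower genes depends on scaling. The classes of promoter genes differed little in either. Of 1043 genes classed as gained by name, 27.7% were higher and 18.6% lower, against 26.5% and 17.8% of 1869 kept genes. By cover of the TSS, 30.4% of 1192 newly covered genes were higher and 17.7% lower, against 29.3% and 16.0% of 2263 covered at both stages and 26.7% and 17.8% of 674 covered at neither. All of these lie near the share among all genes. With TMM scaling 19.1% of kept genes were higher and 22.7% lower, and 21.5% and 23.7% of gained ones. Of 360 genes classed as lost by name 41.1% were higher and 11.4% lower. The TSS of nearly all of these genes was still covered, as given above.

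The share of genes higher in RNA differed with the width of the peak. Among genes whose TSS was covered at both stages, the share that was higher at stage 10.5 was 19.5% under peaks of 1 to 2 kb, 32.6% at 3 to 4 kb, 55.1% at 5 to 7 kb and 62.9% over 7 kb. Among newly covered genes it went from 26.9% at 1 to 2 kb to 37.5% at 3 to 4 kb and 70.7% at 5 to 7 kb, and was 66.7% of 21 genes over 7 kb. Their median stage 9 levels were 44.2 CPM at 1 to 2 kb, 13.4 CPM at 5 to 7 kb and 9.46 CPM over 7 kb. Most of the 21 thus passed the 10 CPM filter only through stage 10.5, which sets part of their share. For genes covered at both stages the same medians were 57.1, 81.2 and 58.6 CPM. Taking both groups together, 201 of 334 genes under peaks of at least 5 kb were higher (60.2%, interval 54.7 to 65.5%), against 825 of 3121 under narrower ones (26.4%). With TMM scaling the shares were 52.1% and 19.6%. The 334 include 62 newly covered genes with a median stage 9 level of 11.4 CPM, of which 69.4% were higher. Those of them under 10 CPM at stage 9 entered only through stage 10.5, which sets part of the share. The 272 genes covered at both stages had a median of 76.5 CPM, and 58.1% were higher, against 25.4% under narrower peaks. The 5 kb limit was chosen after the values were seen.

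Width at stage 9 showed a like order. Of the genes covered at both stages, 17.6% were higher under stage 9 peaks of up to 500 bp, 27.8% at 1 to 1.5 kb and 57.7% of 78 genes at 3 to 4 kb, but 52.5% of 40 genes over 4 kb. The extent of widening showed less of one, with 79 of 316 genes higher where the peak widened by less than 1.5-fold and 32.7% where it widened over 4-fold. Genes under wide peaks were 484 of the 5520 covered at stage 10.5, and 375 of these had been covered at stage 9. An H3K27ac peak lay over the TSS of 94.2% of them, against 75.4% of all covered genes.

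**Figure D4:**
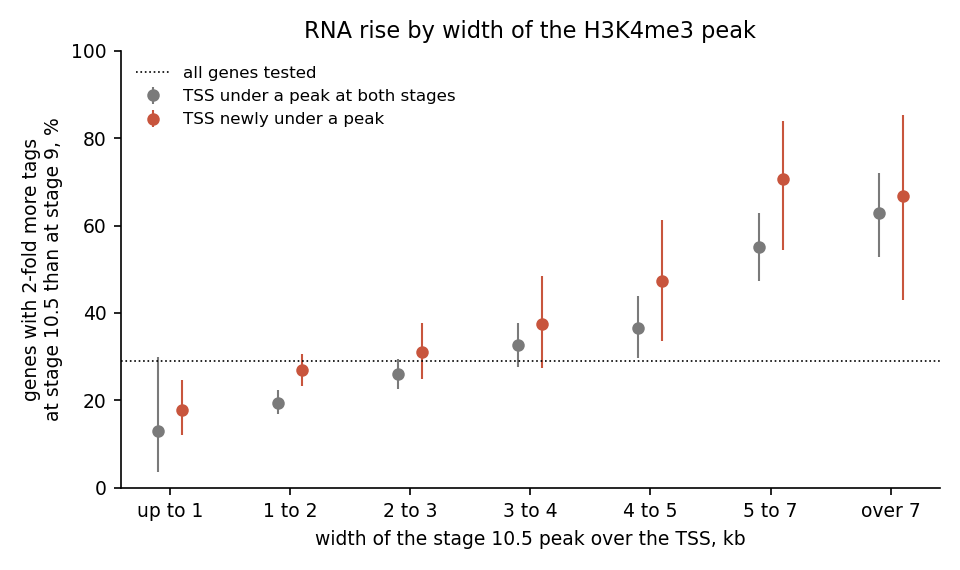
Share of genes with at least 2-fold more RNA at stage 10.5 than at stage 9 (y axis, %) by the width of the stage 10.5 H3K4me3 peak over the TSS (x axis, kb), for TSSs covered at both stages and newly covered, with exact binomial 95% intervals. The dotted line is the 29.0% of all genes tested. Shares lie below it under peaks of up to 2 kb and reach 55.1% and 70.7% at 5 to 7 kb. Genes under 10 CPM at stage 9 entered only through stage 10.5 and could not be lower.

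Genes that came on between the stages mostly had a newly covered TSS. Of 92 genes under 1 CPM at stages 8 and 9 and at 10 CPM or more at stage 10.5, 59 had a newly covered TSS (64.1%, interval 53.5 to 73.9%), 19 had been covered at stage 9 and 14 were covered at neither. Some of these 59, such as otx2 and chrd, were reached by a stage 9 peak beside the TSS and not by a separate new peak. Among all 3943 genes at 10 CPM or more at stage 10.5, 28.6% were newly covered and 55.2% covered at both stages. A peak of at least 5 kb lay over 36 of the 92 (39.1%), against 8.37% of the 3943.

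Among genes classed as gained by name, the 10 largest rises in RNA were in krt, cer1, ventx1.1, sfrp2, atp12a, tat, angpt4, eomes, wnt8a and ventx3.2. For krt, a keratin, 0, 0 and 555 CPM were counted at stages 8, 9 and 10.5, at least 1231-fold more than the limit of 3 tags at stage 9. Its peak of 1686 bp on scaffold 440 had no counterpart within 17234 bp at stage 9. Cer1, the secreted antagonist of Nodal, BMP and Wnt made by anterior endoderm, went from 0 and 0 to 204 CPM, at least 453-fold, under a gained peak of 2684 bp at the start of scaffold 443. Both were undetected in each earlier library.

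The ventx genes encode homeodomain repressors of dorsal fate that act downstream of BMP, and they stand together on scaffold 266. Ventx1.1 was at 0, 0.751 and 332 CPM, 442-fold higher at stage 10.5 than at stage 9 (interval 189 to 1361), under a gained peak of 4013 bp from 905179 to 909191. Ventx3.2 was at 0, 0 and 57.2 CPM, at least 127-fold, under a gained peak of 3825 bp from 950711 to 954535. Between them ventx1.2, at 0, 0.45 and 226 CPM, had a new peak of 4619 bp, which was not counted as a promoter peak because its centre lay too far into the gene. Ventx2.1, with no RNA label of its own, was the only one of the 4 with a stage 9 peak over the TSS, and that peak went from 1386 to 5181 bp.

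Wnt8a, the ligand that ventralizes and posteriorizes mesoderm, had a gained peak of 4877 bp and 0, 0.15 and 81.1 CPM, resting on a single tag at stage 9. Sfrp2, a secreted Wnt modulator, and eomes, a T-box factor of mesendoderm, were classed as gained by centre but had been covered at stage 9, with peaks that went from 2879 to 4824 bp and from 4613 to 7963 bp. Sfrp2 was at 0.201, 0.45 and 164 CPM and eomes at 0, 0 and 75.3 CPM. For eomes the stage 9 peak was present while 0 tags were counted. The other large differences were in atp12a, a proton and potassium pump, at least 248-fold, tat, tyrosine aminotransferase, 854-fold from 1 tag (interval 153 to 33771), and angpt4, an angiopoietin, 218-fold (93.1 to 672).

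Gained promoter peaks also lay at genes whose RNA was lower at stage 10.5. N6amt2, a methyltransferase, was at 11.1, 157 and 3.24 CPM, 48.4-fold lower than at stage 9 (32.8 to 74.4), under a gained peak of 1360 bp. Hpca, a neuronal calcium sensor, was at 17.3, 91.9 and 3.74 CPM under a peak of 642 bp, 24.6-fold lower (17.1 to 36.8). St6gal2, a sialyltransferase, was at 0, 15.2 and 0 CPM under a peak of 4686 bp. Rsbn1 was at 362, 425 and 27.2 CPM, 15.6-fold lower (13.6 to 18.0), and snx11, a sorting nexin, at 45.6, 120 and 7.72 CPM, 15.6-fold lower (12.0 to 20.5). In all 5 genes the stage 9 library stands above both the earlier and the later one.

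The genes classed as gained by name with the highest deposited scores were fbxo5, an inhibitor of the anaphase-promoting complex, dus4l, snd1, rps2, a ribosomal protein, and lsm7, of the spliceosome, with scores of 623, 581, 560, 554 and 552. Their RNA differed by less than 2-fold in fbxo5, at 66.8 and 51.4 CPM, and lsm7, at 195 and 200 CPM. It was 2.54-fold higher in dus4l (2.35 to 2.75) and 6.95-fold higher in snd1 (4.54 to 11.1). Only the dus4l peak of these 5 overlapped no stage 9 peak. The TSSs of snd1 and lsm7 had been covered at stage 9, and those of fbxo5 and rps2 lay 746 and 715 bp from a stage 9 peak that the stage 10.5 peak took in.

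Among kept promoter genes the widest peaks at stage 10.5 were those of lpar2, stx19, myef2, alcam and hnrpk. That of lpar2, a receptor for lysophosphatidic acid, went from 757 to 15075 bp on scaffold 1235. That of stx19, a syntaxin, went from 1155 to 12057 bp, reaching a TSS 75 bp outside the stage 9 peak, and its RNA was at 0.201, 0 and 24.9 CPM. Myef2, a repressor of transcription, had 11942 bp after 1995 bp and 186, 50.9 and 642 CPM. Alcam, an adhesion molecule, had 11903 bp after 4611 bp, and hnrpk, an RNA-binding protein, 11449 bp after 3966 bp. RNA of the 4 with tags was higher at stage 10.5 in each.

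Widening did not always go with more RNA. The largest ratios of promoter peak width, beside lpar2 and stx19, were at rybp, a Polycomb subunit, from 363 to 4232 bp, rhbdd2, from 720 to 8033 bp, and fubp3, from 327 to 3631 bp. Rybp was 2.37-fold lower at stage 10.5 (2.03 to 2.77) and rhbdd2 4.86-fold lower (4.42 to 5.34), while fubp3 was 1.73-fold higher.

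The 5 largest rises in RNA among kept promoter genes were in id3, hoxd1, fgf8, dll1 and ints8. Id3, a target of BMP that inhibits bHLH factors, was at 26.1, 9.91 and 2676 CPM, 270-fold higher (212 to 349), and its peak went from 2244 to 8387 bp. Hoxd1, a homeobox gene of the trunk that responds to retinoic acid in Xenopus, was at 1.01, 0.45 and 92.8 CPM and had 5972 bp after 2645 bp. Ints8, a subunit of Integrator, was 44.5-fold higher (33.1 to 61.1) under a peak that went from 498 to 2846 bp. Fgf8 and dll1, an FGF and a Notch ligand of the early mesoderm, each had 1 tag at stage 9 and 319 and 237 at stage 10.5, under peaks of 8168 and 8492 bp that had been 2705 and 2077 bp. In hoxd1, fgf8 and dll1 a peak thus covered the TSS at stage 9, when RNA was under 1 CPM. At stage 8, of these genes only fgf8 had its TSS covered.

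The strongest gained peaks farther than 1 kb from a TSS were assigned to stx12, hal.1, npl, mmp17 and gatm, with scores from 565 to 604 and widths from 2231 to 7156 bp. Those of hal.1 and gatm, a histidine ammonia-lyase and the amidinotransferase of creatine synthesis, had centres 1.56 and 1.62 kb downstream of the TSS. Those of stx12, npl and mmp17 lay 85.7, 20.6 and 131 kb away in sequence with no annotated gene. No statement on their target follows from the distance.

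Gene lists for the early embryo were described by the cover of the TSS. Of the 7807 genes with a placed TSS, 41.9% were covered at stage 9 and 70.7% at stage 10.5, 28.8% were newly covered, and 6.20% lay under a stage 10.5 peak of at least 5 kb. Of these genes 4130 had enough tags, of which 1207 were higher in RNA at stage 10.5 and 694 lower. Among all genes tested the shares were 29.0% and 17.2%, or 22.3% and 22.3% with TMM scaling. Counts of higher and lower genes in the lists are to be read beside these. In every list, a gene under 10 CPM at stage 9 entered only through its stage 10.5 level and could not be lower. Listed genes with no placed TSS are not described. Changes of scaling turned the median RNA difference of none of the lists below.

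Endoderm genes were mostly uncovered at stage 9 and under wide peaks at stage 10.5. Of 12 placed among the 20 listed, 3 were covered at stage 9 and 10 at stage 10.5, 8 of them under peaks of at least 5 kb. All 7 with enough tags were higher at stage 10.5. All of these 7 but vegt were under 10 CPM at stage 9 and entered only through stage 10.5, so the filter largely sets this count. The GATA factors gata4 and gata5, which specify endoderm and heart, had their nearest stage 9 peak 69643 and 154661 bp from the TSS, and peaks of 8215 and 8225 bp at stage 10.5. Gata4 was at 0.201, 0 and 9.71 CPM and gata5 at 1.61, 0.15 and 15.7 CPM. The forkhead genes foxa1 and foxa2 gained peaks of 6586 and 7741 bp, and hhex, of anterior endoderm, one of 5662 bp with 0.804, 0.15 and 52.6 CPM. Sox17a, a core endoderm factor, had a stage 9 peak 154 bp from its TSS, which was covered by 4766 bp at stage 10.5, and was at 0.201, 0.751 and 48.1 CPM. Mix1, an immediate target of Nodal, had 2795 bp and 0, 1.5 and 69.7 CPM. Gata6 was covered throughout, with 3205 and 9813 bp and little RNA. Vegt, whose maternal transcript starts endoderm formation in Xenopus, was higher at stage 10.5 with no peak over the placed TSS at either stage.

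Mesoderm genes followed the same course with narrower peaks. Of 22 placed among 33, 7 were covered at stage 9 and 21 at stage 10.5, 6 under peaks of at least 5 kb. All 11 with enough tags were higher. These 11 were all under 10 CPM at stage 9 and entered only through stage 10.5, so the filter largely sets this count. Brachyury, t, the T-box factor of the mesoderm, was at 0, 0.15 and 233 CPM and had a new peak of 4303 bp from 291576 to 295878 on scaffold 432, with none within 79042 bp at stage 9. Cdx2 and cdx4, homeobox genes of the posterior, were at 0.201, 0.3 and 180 CPM and at 0, 0 and 32.4 CPM, under new peaks of 3701 and 5386 bp. The bHLH genes msgn1 and mespb of paraxial mesoderm had new peaks of 2085 and 3117 bp with 26.9 and 22.9 CPM, after 0 tags at both earlier stages. Myod1, the muscle determination factor, was covered already at stage 9, with 1333 and 2684 bp, and has no RNA label. Fgf3 was the only one covered at neither stage.

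At organizer genes the mark more often spread from beside the TSS than appeared anew. Of 16 placed among 18, 6 were covered at stage 9 and 15 at stage 10.5, 10 under peaks of at least 5 kb. All 9 with enough tags were higher. Apart from the gene not, at 35.9 CPM, these were under 10 CPM at stage 9 and entered only through stage 10.5, so the filter largely sets this count. Of the 9 newly covered, 7 were reached by a stage 9 peak lying 4 to 818 bp from the TSS, against 13.6% of newly covered genes in all, 1 of 7 in the endoderm list and 1 of 14 in the mesoderm list. These 7 were gsc, the homeobox gene of the organizer, chrd, its BMP antagonist chordin, not, admp, otx2, irx2 and irx3. By name, gsc was classed as kept and chrd and admp as lost, so each already had a stage 9 promoter peak. Their stage 9 peaks lay 68, 65 and 4 bp from the TSS. At such gaps the class rests on the exact position of the annotated TSS, whose accuracy was not tested. The difference between lists was not tested, and the feature of spread from beside the TSS was picked out after values were seen. It was not particular to the organizer list. Ribosomal protein genes had 11 of 15 and ectoderm and neural genes 3 of 5. The share was lower in the Wnt and FGF list, 2 of 6, the pluripotency list, 1 of 4, and the Hox and retinoic acid list, 1 of 7. In the BMP and ventral list it was 0 of 5 and in the Nodal list 0 of 4.

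Otx2, a homeobox gene of the head, had the widest peak of the organizer list, 14026 bp from 1510288 to 1524313 on scaffold 68, after a stage 9 peak 818 bp away, and was at 0, 0.15 and 84.7 CPM. Gsc went to 6177 bp and from 0.201 and 2.55 to 66.6 CPM, and chrd to 5638 bp and from 0 and 0.45 to 58.8 CPM. Frzb, a Wnt inhibitor, and foxa4 had separate new peaks of 4997 and 4816 bp. Irx1 and fst, follistatin, an antagonist of activin and BMP, were wide already at stage 9, with 9224 and 7886 bp, and gained little, to 10236 and 8644 bp.

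**Figure D5:**
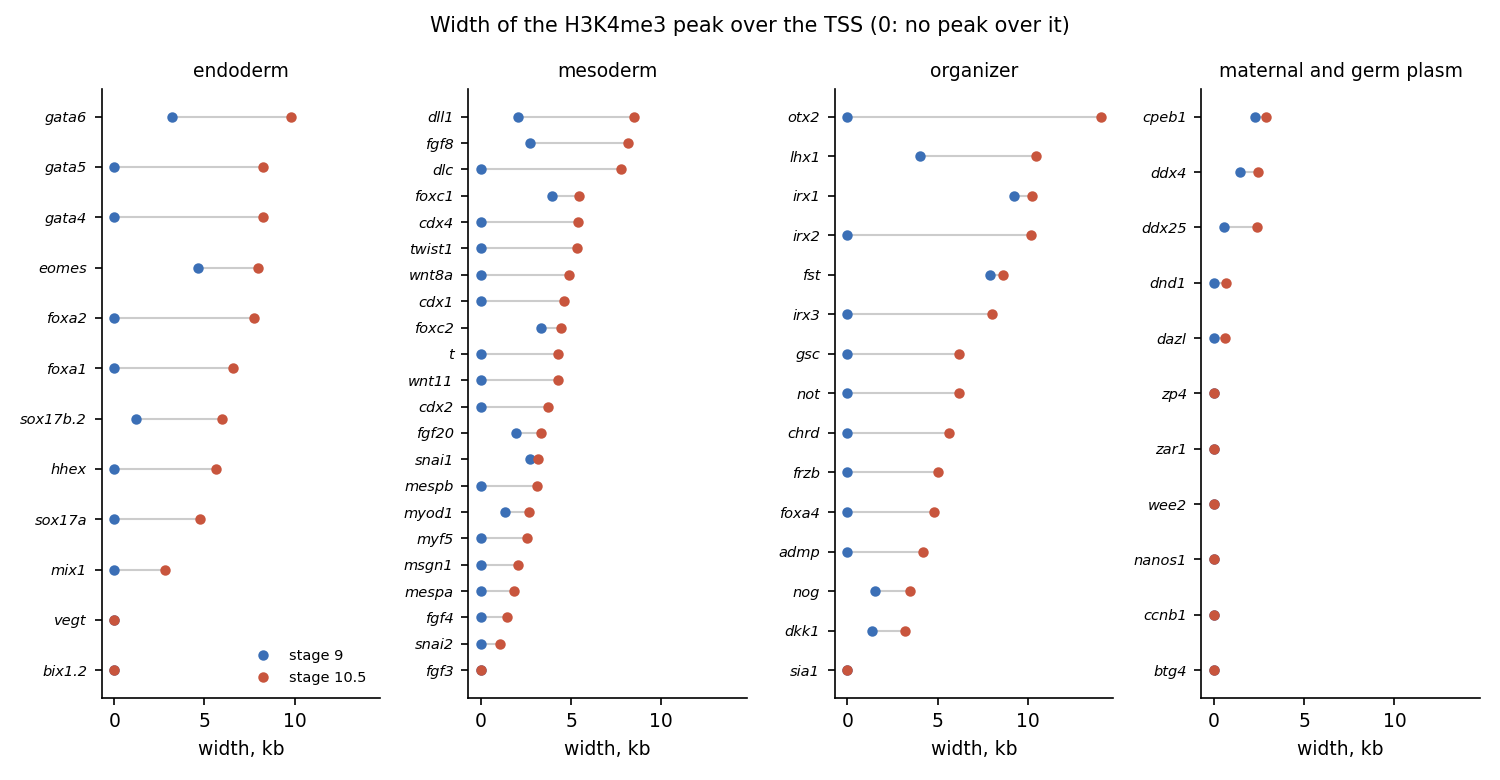
Width of the H3K4me3 peak over the TSS (x axis, kb) at stage 9 and stage 10.5 for genes of the endoderm, mesoderm, organizer and maternal lists with a placed TSS, 1 organizer gene left out, where 0 is no peak over the TSS. Most endoderm, mesoderm and organizer genes go from 0 to several kilobases, while 6 of 11 maternal genes stay at 0.

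BMP and ventral genes were covered more often at stage 9, 9 of 14, and all 14 were covered at stage 10.5, 10 of them under peaks of at least 5 kb. Bmp4, the ventral ligand, had 5849 and 10664 bp and 0.402, 4.35 and 139 CPM. Id2 widened most, from 351 to 8602 bp, and its RNA was 5.35-fold lower at stage 10.5 than at stage 9, at 306, 455 and 85.2 CPM. It was the only lower gene among 8 with enough tags, of which 5 were higher. Of these 5, bmp4, id3, szl and ventx1.1 were under 10 CPM at stage 9 and entered only through stage 10.5. The filter thus largely sets this count. Szl, sizzled, a secreted inhibitor of chordin cleavage, had a separate new peak of 3436 bp and 0, 0.3 and 62.6 CPM.

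The ectoderm and neural list had a median width of 7687.5 bp over covered TSSs at stage 10.5, the highest of the lists. Of 21 placed among 34, 13 were covered at stage 9 and 18 at stage 10.5, 12 under peaks of at least 5 kb. Sox2, the neural progenitor factor, went from 5886 to 18765 bp on scaffold 245 and has no RNA label. Tfap2a, of epidermis and neural crest, went from 5241 to 17181 bp and from 0 and 0.601 to 143 CPM. Sox3, a maternal factor of the same family as sox2, had 4697 and 10580 bp, and its RNA differed by less than 2-fold from stage 9, at 718 and 1320 CPM. Krt18, a keratin of the superficial layer, widened from 440 to 3507 bp while its RNA was lower, at 2076, 5682 and 1446 CPM.

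Of 23 Wnt and FGF pathway genes, 16 were covered at stage 9 and 22 at stage 10.5, 12 under peaks of at least 5 kb, and 14 of 15 with enough tags were higher, or 13 with TMM scaling. Sfrp2 and spry1 among the higher ones were under 10 CPM at stage 9 and entered only through stage 10.5. The receptor gene fgfr1 widened from 713 to 6550 bp and was 3.45-fold higher, and tcf7l1, a repressor of Wnt targets that ctnnb1 relieves, widened from 3538 to 12814 bp and was 2.46-fold higher. Ctnnb1 itself, beta-catenin, had 3900 and 10346 bp and was 6.73-fold higher, at 837, 225 and 1516 CPM, so that its level at stage 9 lay below both neighbours. Of 19 Hox and retinoic acid genes, 9 and 16 were covered, and the 3 covered at neither stage were hoxa3, hoxa5 and hoxc10. Hoxb4, hoxb5, hoxb9 and hoxd8 had new peaks of 2968, 1931, 2653 and 782 bp and no RNA label.

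Maternal and later genes differed from these lists. Of 11 maternal and germ plasm genes, 3 were covered at stage 9 and 5 at stage 10.5, none under a peak of at least 5 kb, and of 8 with enough tags 1 was higher and 2 lower, or 0 and 2 with TMM scaling. Zp4, an egg coat protein, and btg4, a factor of maternal RNA clearance, had 1142, 1163 and 789 CPM and 958, 729 and 54.5 CPM with no peak over the TSS at either stage. Of 25 genes of later cell types, 0 were covered at stage 9 and 6 at stage 10.5, with a median width of 1130.5 bp, and none of the placed genes has an RNA label. These 6 were acta1, pax6, neurod1, tubb3, snap25 and tal1. Their share of 24.0% newly covered is near the 28.8% of all genes.

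Housekeeping and ribosomal protein genes were mostly covered by stage 9. Of 20 housekeeping genes, 15 were covered at stage 9 and 17 at stage 10.5, 2 under peaks of at least 5 kb, against 6.20% of all placed genes, and of 19 with enough tags 9 were higher and 2 lower, or 7 and 3 with TMM scaling. Actb, cytoplasmic actin, had 3191 and 3192 bp and 209, 169 and 560 CPM, so that its RNA was 3.32-fold higher under a peak of the same width. Of 72 ribosomal protein genes, 51 and 66 were covered, 2 under peaks of at least 5 kb, with a median width of 3243.5 bp at stage 10.5 against 2001.5 bp for all covered genes. Of 68 with enough tags, 7 were higher and 14 lower, or 4 and 23 with TMM scaling. Whether tags of ribosomal protein genes were shared between copies of like sequence was not tested. Of 15 chromatin genes, 12 and 14 were covered, and 5 of 12 with enough tags were higher, or 1 with TMM scaling. Setd1b, a catalytic subunit of an H3K4 methyltransferase, had 2933 and 7843 bp, and kdm5c, an H3K4me3 demethylase, 1674 and 5047 bp and 1308, 197 and 449 CPM.

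Of 14 pluripotency genes, 9 were covered at stage 9 and 13 at stage 10.5, 8 under peaks of at least 5 kb, and 6 of 11 with enough tags were higher and 2 lower, or 4 and 2 with TMM scaling. Lin28a, an RNA-binding protein that blocks let-7, had a separate new peak of 13288 bp on scaffold 106 and no RNA label. Klf17, a zinc finger factor, went from 3696 to 7826 bp and from 8.71 to 241 CPM. Mycn and klf2 were newly covered, by 2238 and 3761 bp, with RNA lower at stage 10.5, 2.83-fold and 2.87-fold below stage 9. Of the Nodal ligands and antagonists, 4 of 5 placed genes were newly covered, nodal1, gdf3, cer1 and the coreceptor gene tdgf1, by 2537, 2842, 2684 and 7539 bp, all under separate peaks. Tdgf1 was at 154 CPM at stage 9 with no peak over its TSS, and at 74.8 CPM at stage 10.5 under 7539 bp.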

How the data were processed

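The members and lists were chosen with earlier results of these data known. Per the labels, H3K4me3 peaks came from immunoprecipitated chromatin of pools of 250 embryos. The submitters' processing notes name BWA, Bowtie, MACS2 and HOMER without versions or settings. The authors deposited 17 annotated peak lists on xenTro2, 15 of them used here, with a score per peak (the authors' own scale, used only within a list) and GC and CpG content as a fraction, printed here as percent. The deposited RNA table gives tag counts per region with gene labels. Tags of 5944 labels were summed (20406 of 46039 regions name no gene), and 4861 of 7807 genes with a placed TSS share a name with a label. 4 sample columns that match no listed sample were not used.

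TSS and strand were taken as the position on which all distances to a promoter agree within 2 bp (8092 of 8493 promoters). Folds carry conditional binomial intervals, and 0 tags are read as at most 3. Folds given as "at least" rest on that reading and not on the interval. The lower limit of the interval is smaller, 1001-fold for krt against 1231-fold. With 1 library per group no test was run. Scripts were tested on simulated data. Named genes follow a rule on rank of RNA difference, score and width within each class, plus list members. The genes kdm2a, rn18s, actb and wrap53, and the examples picked from the lists, were singled out after their values were seen. Promoter sequences were not used here. Python 3.11.15, pandas 2.3.3, scipy 1.17.1 and edgeR 4.0.16 (TMM factors alone) were used. Values of some list members are not reported here, though they count in the list totals.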

Additional observations from a re-analysis of the deposited data

How the results depend on the processing

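No paired analysis was possible because each group holds 1 library. No replicate could be left out for the same reason. Asking for an overlap of 50% of the shorter peak, allowing a gap of 1 kb or leaving out 24 loci with H3K27me3 peaks at all stages kept the counts of kept, lost and gained peaks within 1.5 times. An overlap of 50% of both peaks, which no pair whose widths differ by over 2-fold can reach, left 2538 stage 9 peaks kept and 4301 lost. Among the upper 50% of each list by score, 3170 were kept, 249 lost and 4124 gained. With the stage 10.5 list cut to the length of the stage 9 list, 1456 stage 9 peaks were lost and 1524 stage 10.5 peaks gained, or 22.3%. In lists of equal length these 2 counts are bound to lie close together. The part of read depth in the gains was not tested. With peaks of at least 500 bp, 258 were lost.

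In the upper 50% by score the median widths were 1222 bp for kept peaks at stage 9, 2698.5 bp for kept peaks at stage 10.5, 1793 bp for gained and 714 bp for lost peaks. GC was 44.4% in gained and 47.7% in lost peaks, and the distance to a TSS 1264 bp and 19906 bp. The class of lost promoter genes by name held 891 genes with a window of 500 bp, 190 with 2 kb and 1 when classed by cover of the TSS. With the upper 50% by score 1441 promoter genes were kept. With the 500 bp window, 298 of 1306 kept genes tested were higher in RNA (22.8%). With the main window of 1 kb it was 496 of 1869 (26.5%), against 29.0% of all genes tested.

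The alternatives named in this paragraph were chosen after seeing the data. With the stage 10.5 list cut in length, 984 TSSs were newly covered and 244 covered at stage 9 only. In the upper 50% by score 1947 were covered at both stages and 41 at stage 9 only. The median width ratio was 2.13 in the upper 50% by score and 1.90 for stage 9 peaks of at least 1 kb. The share of genes higher in RNA was 51.2% with the wide limit at 4 kb, and 28.4% under narrower peaks with the limit at 7 kb. It was 52.1% under wide and 19.6% under other peaks with TMM, and 52.9% and 21.6% with median of ratios. It was 34.3% under other peaks with the most abundant region of each gene.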

Other observations

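TSSs that carried H3K4me3 first also had the widest peaks later. Of the 8092 placed TSSs, 544 were covered at stage 8, and 95.8% of these were covered at stage 9 and 98.7% at stage 10.5. Their median width was 891 bp at stage 8, 1467 bp at stage 9 and 3255 bp at stage 10.5. TSSs first covered at stage 9 (2771) had 995 bp and then 2260 bp, and those first covered at stage 10.5 (2263) had 1527 bp. A stage 10.5 peak of at least 5 kb lay over 21.1%, 9.53% and 4.95% of the 3 groups, and H3K27ac at stage 10.5 over 92.6%, 83.1% and 61.4%. The stage 8 list is short, with 2010 peaks. RNA was higher at stage 10.5 than at stage 9 in 35.9%, 28.0% and 30.4% of the genes tested in the 3 groups, against 29.0% of all.

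Genes with more RNA at stage 10.5 were covered more often, and covered genes were common at low RNA too. Of 911 genes at 200 CPM or more at stage 10.5, 65.8% were covered at stage 9 and 86.8% at stage 10.5, and of 844 genes at 1 to 10 CPM, 41.5% and 77.0%. Of the 2946 genes with no RNA label of the same name, 51.5% were covered at stage 10.5. Among newly covered genes, those with H3K27ac over the TSS at both stages were higher in RNA in 41.2% of 330 cases, those that gained it in 27.6% of 482, and those with it at neither stage in 24.4% of 349. The share was 30.4% of all newly covered genes tested and 29.0% of all genes tested, so the last 2 groups lie near or below these.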
